A study of Mus musculus with 2 samples.

Results

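Accessible sites around Sox2 were examined in the ATAC-seq peak lists of WT and Uhrf1 KO mouse ESCs. All peaks in the Sox2 gene and in 150 kb on either side of it were taken (chr3:34398927-34701383, mm9), by position alone. This window held 14 of the 71914 WT peaks and 12 of the 61640 KO peaks, 26 of 133554 in all. ATAC-seq inserts sequencing adapters into open chromatin with the transposase Tn5, so a peak marks a stretch where many insertions were found. Both samples were undifferentiated mouse ESCs grown in serum with leukemia inhibitory factor, on gelatin or on feeder cells. The authors name them as E14 and Uhrf1 KO cells and do not state the parent line of the KO cells. One line was WT and the other was the Uhrf1 KO line, which lacks Uhrf1, a protein that brings the maintenance DNA methyltransferase Dnmt1 to replicating DNA. Each genotype had 1 library, and the peak lists give neither read numbers nor peak heights. Every difference below therefore compares these 2 libraries, with no test between genotypes, and depth and genotype cannot be told apart.

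Sox2 is a SoxB1 transcription factor that binds DNA through its HMG box, beside Oct4 at many enhancers of ESCs, and it is needed to keep the pluripotent state. Its single coding exon lies inside Sox2ot, a long noncoding transcript read in the same direction. Known enhancers of Sox2 include Sox2 regulatory region 1 (SRR1) a few kb upstream, Sox2 regulatory region 2 (SRR2) a few kb downstream, and the Sox2 control region about 100 kb downstream, which carries most of the enhancer activity in ESCs. In GENCODE vM1, Sox2 (ENSMUSG00000074637.3) spans chr3:34548927-34551383 on the plus strand, with its coding sequence at chr3:34549338-34550294. Sox2ot (ENSMUSG00000090828.2) spans chr3:34003360-34581541, also on the plus strand. The window held no other protein-coding gene, which left Sox2ot and the miRNA genes Mir1897 and AC137708.1 as its only neighbours. Distances are given from the Sox2 transcription start site (TSS), with negative values upstream.

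Peaks of both lists that touched or lay at most 100 bp apart were joined into sites, and the 26 peaks formed 14 sites. The sequences of the sites that carry the comparison follow, from the plus strand of mm9. The sites between 2 and 10 kb upstream and those of the control region were shown by rule, and the promoter and the +18.7 kb site were added after their values had been seen. Capitals in the upstream sites mark AGGGGGCGC or its reverse complement GCGCCCCCT, the core of the site bound by the insulator protein CTCF, and capitals in the control region mark CNTTGT or ACAANG, the core bound by Sox proteins. Both cores were chosen after the sequences had been seen.
-9.1 kb, WT only (chr3:34539783-34539883): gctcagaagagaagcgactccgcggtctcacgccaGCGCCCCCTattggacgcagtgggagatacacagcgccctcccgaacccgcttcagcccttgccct
-2.1 kb, WT only (chr3:34546778-34546878): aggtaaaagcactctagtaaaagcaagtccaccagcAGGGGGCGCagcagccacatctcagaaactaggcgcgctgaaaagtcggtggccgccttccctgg
promoter, both, up to the TSS (chr3:34548742-34548926): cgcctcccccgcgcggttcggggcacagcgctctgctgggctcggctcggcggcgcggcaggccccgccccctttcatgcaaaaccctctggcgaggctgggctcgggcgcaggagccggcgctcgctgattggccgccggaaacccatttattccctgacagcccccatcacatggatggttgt
+18.7 kb, both (chr3:34567546-34567671): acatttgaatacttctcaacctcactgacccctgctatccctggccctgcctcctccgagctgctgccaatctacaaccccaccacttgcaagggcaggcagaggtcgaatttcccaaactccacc
+95.4 kb, both (chr3:34644233-34644355): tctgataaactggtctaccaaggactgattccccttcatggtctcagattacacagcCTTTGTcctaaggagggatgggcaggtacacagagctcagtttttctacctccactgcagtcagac
+106.7 kb, both (chr3:34655561-34655674): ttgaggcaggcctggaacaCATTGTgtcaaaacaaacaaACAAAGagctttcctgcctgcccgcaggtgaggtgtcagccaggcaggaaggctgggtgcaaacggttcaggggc
+107.9 kb, WT only (chr3:34656744-34656844): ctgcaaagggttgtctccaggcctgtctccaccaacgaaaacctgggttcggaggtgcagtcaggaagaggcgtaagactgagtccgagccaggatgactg
+110.0 kb, WT only (chr3:34658918-34659018): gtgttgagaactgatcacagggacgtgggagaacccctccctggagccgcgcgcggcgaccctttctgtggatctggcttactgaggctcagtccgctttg
+111.4 kb, both (chr3:34660197-34660489): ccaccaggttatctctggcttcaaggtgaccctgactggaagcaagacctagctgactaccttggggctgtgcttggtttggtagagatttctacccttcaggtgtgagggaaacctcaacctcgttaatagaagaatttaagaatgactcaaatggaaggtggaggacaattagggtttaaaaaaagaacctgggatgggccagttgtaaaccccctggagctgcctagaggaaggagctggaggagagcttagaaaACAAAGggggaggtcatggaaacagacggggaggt

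Of the 14 sites, 8 were listed in both libraries, 5 in WT alone and 1 in Uhrf1 KO alone. The sites in both were the promoter, the coding sequence, 3 sites of the control region and the sites at -73.6, +18.7 and +145.7 kb. The sites in WT alone lay at -12.9, -9.1, -2.1, +107.9 and +110.0 kb, and the site in KO alone lay at -0.69 kb. Among all 67510 sites of the genome, 50.7% were in both lists, 28.3% in WT alone and 21.0% in KO alone.

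Counted as peaks, 5 of 14 WT peaks had no KO peak within 100 bp, a share of 35.7% with a 95% exact interval of 12.8 to 64.9%. Over all WT peaks this share was 32.1%. In the other direction, 1 of 12 KO peaks had no WT partner, a share of 8.33% with an interval of 0.211 to 38.5%, and over all KO peaks it was 24.6%. The intervals cover counting error only, and both hold the genome-wide share. Requiring at least 50% of both peaks to overlap raised the KO-only number to 5 of 12 (41.7%), beside 42.4% of all KO peaks under that rule. More than 2 kb from the Sox2 TSS, 5 of 12 WT peaks were without a partner (41.7%, interval 15.2 to 72.3%) beside 39.0% of the genome's WT peaks over 2 kb from any TSS. None of the 8 KO peaks there lacked a partner (0%, interval 0 to 36.9%), beside 38.3% of KO peaks over 2 kb from any TSS, but 3 of these 8 peaks formed a single site. The Sox2 set and the genome set were not filtered alike, since the first left out only peaks near the Sox2 TSS. Of its 5 WT peaks without a partner, 1, at -12.9 kb, lay 77 bp from a Sox2ot TSS and would not be in the genome set. A peak missing from a list was not shown to be closed chromatin, since the threshold of the lists and the reads under each peak are unknown.

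**Figure D1:**
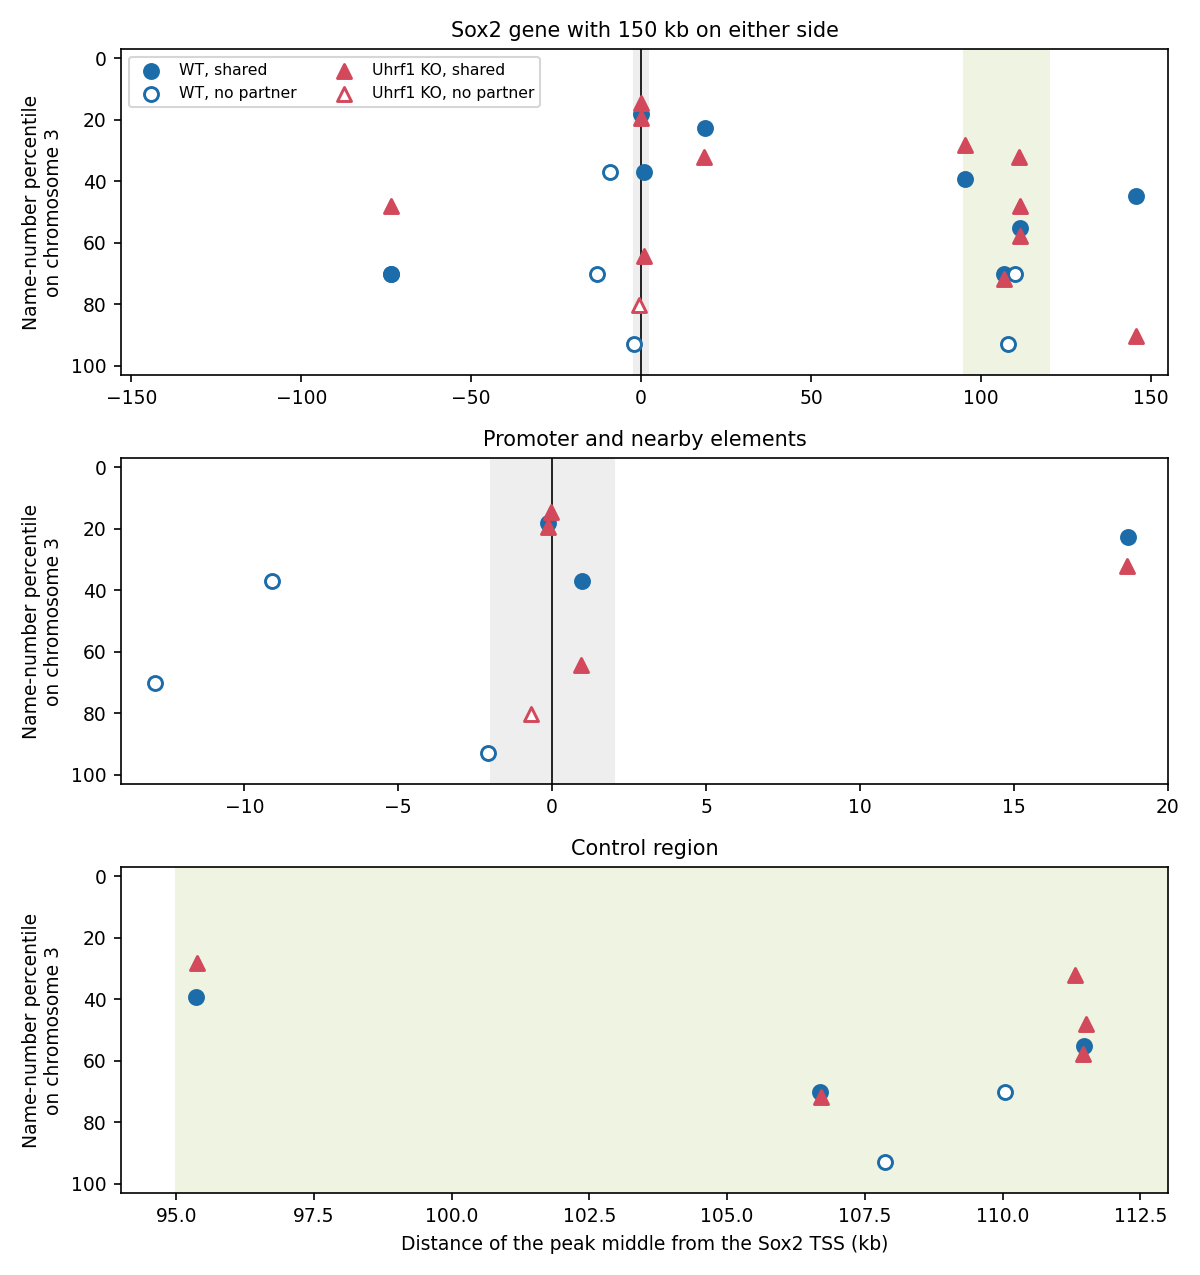
Peaks of WT (circles) and Uhrf1 KO (triangles) by distance of the peak middle from the Sox2 TSS, in kb, against the percentile of the peak's name number on chromosome 3 (lowest numbers at the top). Filled symbols have a partner within 100 bp in the other list, open symbols have none, the grey band is the promoter and the green band the control region. All 5 open circles lie upstream of the promoter or at +107.9 and +110.0 kb.

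Each peak name ends in a number, and this is the only graded value in the lists. Its meaning is not stated in the sources used here, so it was turned into a percentile, the percent of peaks of chromosome 3 in the same list with a lower number. The number was related to the chance of finding the peak in the other list. In WT, 0.333% of the decile of peaks with the lowest numbers had no KO partner, and 65.7% of the decile with the highest. In KO the corresponding shares were 0.729 and 53.5%. Sorted by number, the positions climbed along the chromosome in runs, so peaks of one run may be tied and differences within a run were not read. The range of the run is given as the resolution of a percentile. Median percentiles in the Sox2 window were 62.7 in WT and 48.1 in KO.

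The Sox2 promoter was listed in both libraries and had the lowest numbers of the locus. WT had 1 peak there, centred at -0.12 kb (chr3:34548753-34548853), with a percentile of 18.1 and a run from 18.1 to 18.8. KO had a pair of peaks, centred at -0.14 kb (chr3:34548742-34548842) and -0.05 kb (chr3:34548829-34548929), with percentiles of 19.5 and 14.4. The WT middle lay 11 bp from the first KO middle. The second KO peak reached the TSS itself, where WT had no peak of its own. Compared by the lowest number of the site, the KO percentile minus the WT percentile was -3.79, while the closest KO peak stood above WT, at 19.5 against 18.1. For the lowest numbers, 78.0% of the genome's sites in both lists differed by at least as much. The promoter sequence was rich in GC, at 70.3% over 185 bp with 20 CpGs.

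Within 2 kb of the TSS, WT had 2 peaks (95% exact Poisson interval 0.242 to 7.22) and KO had 4 (1.09 to 10.2). The KO peak without a partner lay at -0.69 kb (chr3:34548182-34548282), 571 bp from the nearest WT middle, with a percentile of 80.4. In the same decile of KO numbers, 46.0% of peaks had no WT partner. The other promoter-proximal site lay inside the coding sequence at +0.95 kb, at chr3:34549851-34549951 in WT and chr3:34549800-34549900 in KO. Its percentile was 37.1 in WT and 64.4 in KO, 27.3 higher, and 23.0% of all sites in both lists differed by at least as much.

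Upstream, all 3 sites between -13 and -2 kb were in the WT list alone. The peak at -12.9 kb (chr3:34535964-34536064) lay in an intron of Sox2ot, 77 bp from the TSS of a Sox2ot transcript, with a percentile of 70.3. The peak at -9.1 kb (chr3:34539783-34539883), also in a Sox2ot intron, had a percentile of 37.1, in a run from 36.7 to 38.7. Of the peaks without a partner around Sox2 it had the lowest number. In its decile of WT numbers, 18.8% of peaks over 2 kb from any TSS had no KO partner. The peak at -2.1 kb (chr3:34546778-34546878) was in the last run of the WT list, whose percentiles start at 90.9, and in its decile 65.2% of such peaks lacked a partner. Nearest KO middles were 8399 bp away from the -9.1 kb peak and 1404 bp from the -2.1 kb peak. The zone from 2 to 10 kb upstream, which is where SRR1 would be sought, thus held 2 WT peaks (0.242 to 7.22) and 0 KO peaks (0 to 3.69). In the same zone, 8.68% of protein-coding genes had 2 or more WT peaks and 81.3% had 0 KO peaks. Whether either peak is SRR1 was not tested, since no source used here gives its coordinates.

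Both upstream peaks printed above held the CTCF core, on the minus strand at -9.1 kb and on the plus strand at -2.1 kb. No other WT or KO peak of the window held it within its central 200 bp. Over all peaks, 2.29% in WT and 1.74% in KO held it. The CTCF pattern chosen beforehand, CCAGNNGGC, was a different string and not a looser form of this core. It matched 0 of the 14 WT and 0 of the 12 KO peaks, beside 9.50 and 8.19% of all peaks. Neither peak with the core matched it, so its absence does not show that the core is absent. A match shows only that the letters are there, and binding of CTCF was not measured.

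The zone from 2 to 10 kb downstream, where SRR2 would be sought, held 0 peaks in both lists, which allows up to 3.69 peaks by the Poisson interval. The same zone held no WT peak at 82.0% of protein-coding genes and no KO peak at 83.6%. Further upstream, the -73.6 kb site in a Sox2ot intron had 2 WT peaks, with percentiles of 70.2 and 70.3, and 1 KO peak with a percentile of 48.1. The difference, KO minus WT, was -22.2 percentiles, and 30.1% of all sites in both lists reached that size. Downstream of the gene, the +18.7 kb site, also in a Sox2ot intron, had the lowest number after the promoter in WT, at a percentile of 22.7. In KO it stood at 32.1, 9.48 higher, and 58.0% of all sites in both lists differed by at least as much.

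**Figure D2:**
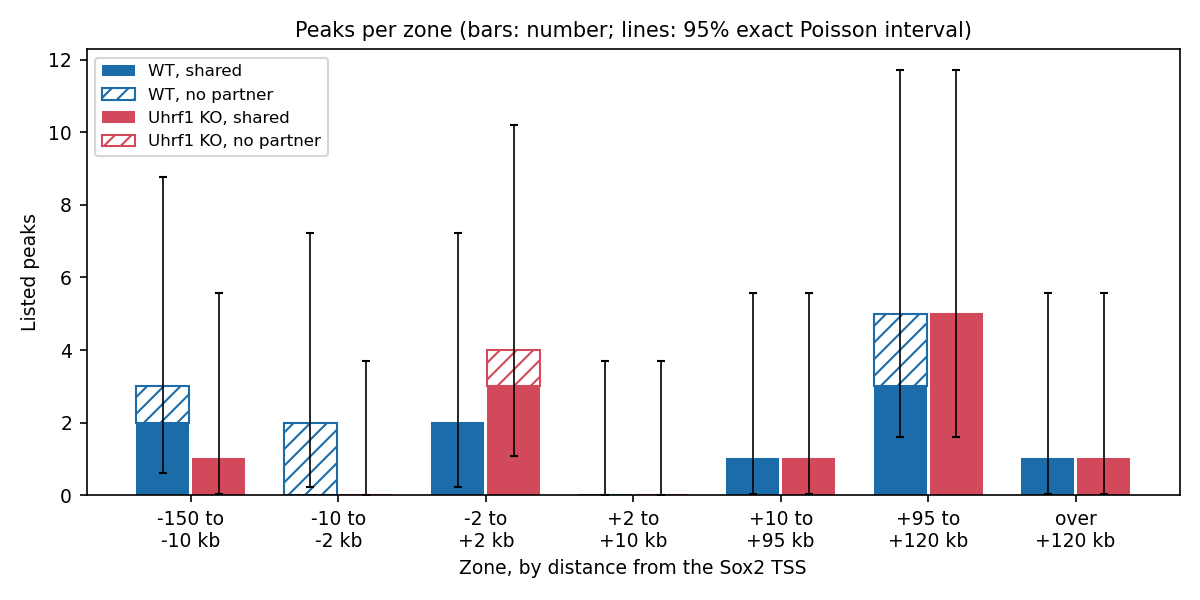
Number of listed peaks in each zone around the Sox2 TSS for WT (blue) and Uhrf1 KO (red), filled where the peak has a partner in the other list and hatched where it has none, with 95% exact Poisson intervals. The zone from 2 to 10 kb upstream had 2 WT and 0 KO peaks, and the control region had 5 in each, with wide and overlapping intervals.

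The Sox2 control region was taken as 95 to 120 kb downstream, and no source used here gives its coordinates. This zone had 5 peaks in each library (1.62 to 11.7 in both). The peaks were arranged differently. WT spread them over 5 sites and KO over 3, all of which were also in WT. The +95.4 kb site was in both lists, with a percentile of 39.2 in WT and 28.1 in KO. That difference, KO minus WT, was -11.1, a size reached by 53.4% of all sites in both lists. The +106.7 kb site was in both as well, at 70.3 and 71.7. It was the only shared site at which the run ranges of the lowest-numbered WT and KO peaks overlapped. The next 2 sites were listed in WT alone.

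The +107.9 kb peak (chr3:34656744-34656844) was in the last WT run, with a percentile of 92.9. It was the only peak of the window whose central 200 bp held AAGGTCA, the sequence bound by the nuclear receptor Esrrb, against 2.69% of all WT peaks. The +110.0 kb peak (chr3:34658918-34659018) had a percentile of 70.3 in WT, in the decile where 54.0% of peaks over 2 kb from a TSS had no KO partner. Their nearest KO middles were 1170 and 1279 bp away. Both WT-only peaks were thus in deciles where more than 50% of comparable WT peaks also lacked a partner.

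At +111.4 kb, WT had fewer peaks than KO. WT had 1 peak (chr3:34660353-34660453) with a percentile of 55.1. KO had 3 peaks, at chr3:34660197-34660297, chr3:34660334-34660434 and chr3:34660389-34660489, with percentiles of 32.2, 57.8 and 48.1. The first of these lay 156 bp from the WT middle and had the lowest KO number of the cluster, whereas the closest one, 19 bp away, had the percentile of 57.8. The site covered 293 bp in all, and by its lowest number the KO percentile minus the WT percentile was -22.9, a size reached by 29.1% of all sites in both lists. Merged into single stretches, the KO peaks of the control region numbered 3.

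The last site of the window, at +145.7 kb (chr3:34694576-34694676 in WT), had the widest gap between the libraries. Its percentile was 44.8 in WT and 90.5 in KO, 45.7 higher, and 7.10% of all sites in both lists differed by at least as much. Across the 8 shared sites, KO had the lower number at 4 (-73.6, promoter, +95.4 and +111.4 kb) and WT at 4 (coding sequence, +18.7, +106.7 and +145.7 kb), with overlapping runs at +106.7 kb. At the promoter and at +111.4 kb this took the lowest of several KO peaks against 1 WT peak. By the closest pair of peaks at each site, a comparison added after the values were seen, KO had the lower number at 2 sites and WT at 6. For these pairs the runs overlapped at +106.7 kb and also at +111.4 kb (54.3 to 58.7 in WT, 56.6 to 63.1 in KO). Both sites were among those with the lower number in WT, and their order is not resolved. The median absolute difference over all shared sites of the genome was 12.2 percentiles, and 15.1 over those more than 2 kb from any TSS. The percents given for single sites take all shared sites, promoters included, as background. These values order peaks within a list and are not signal, and a change of accessibility was not measured by them.

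**Figure D3:**
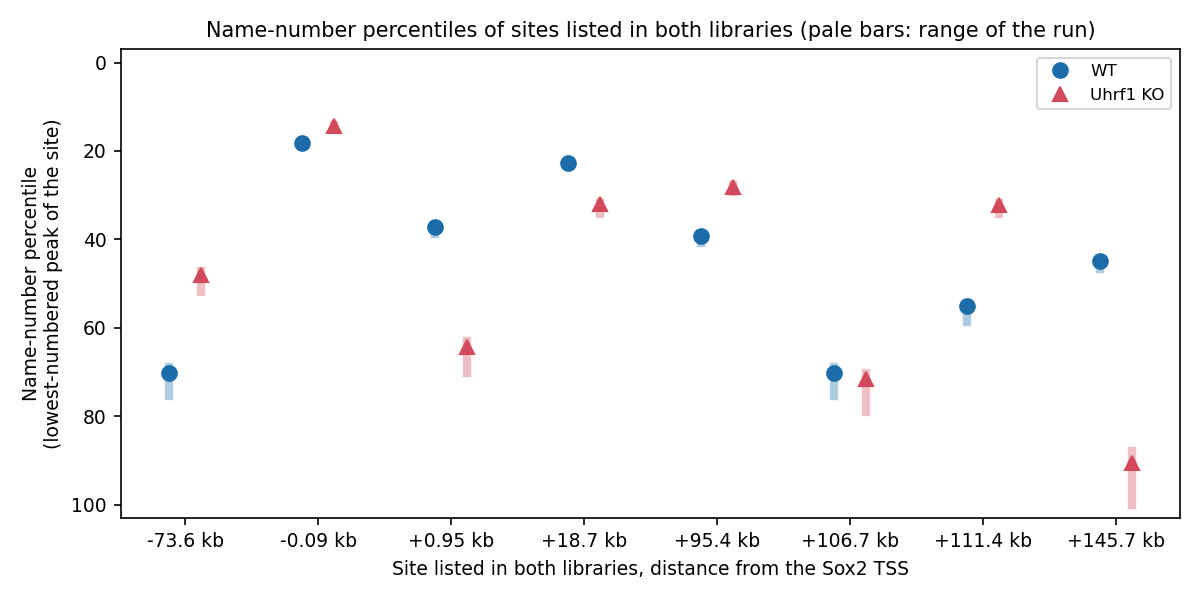
Name-number percentile of the lowest-numbered WT (circles) and Uhrf1 KO (triangles) peak at each of the 8 sites in both lists, with pale bars for the range of the run the peak belongs to, lowest numbers at the top. The bars overlap only at +106.7 kb, and the gap at +145.7 kb, 44.8 against 90.5, is the widest.

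Motifs of pluripotency factors were counted in the Sox2 sites beside all peaks, and 14 or 12 peaks are too few to separate these shares. The Oct4 octamer ATGCAAAT, the joint Sox and Oct pattern TTGTNATGC, the Sox pattern CATTGTT and the Stat3 pattern TTCCNGGAA, read on both strands in the central 200 bp, were in 0 of 14 WT and 0 of 12 KO peaks. In all WT peaks they occurred in 1.58, 0.738, 2.11 and 0.645%. The Klf pattern CCACNCCC was in 2 peaks of each list, at +106.7 and +145.7 kb, beside 15.9% of all peaks. The short Sox core CNTTGT, which overlaps the Sox pattern, was in 8 of 14 WT and 7 of 12 KO peaks, beside 27.0 and 30.5% of all peaks and 35.0 and 39.0% of those over 2 kb from a TSS. In the control region it was in the central 200 bp of all 5 WT peaks and of 4 of the 5 KO peaks, although the capitals show it in only 3 of the printed stretches.

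Base composition varied along the locus. GC content of the central 200 bp had a median of 55.5% in both lists, ranging over 47 to 73% in WT and 46.5 to 76% in KO. Medians over all peaks, many of them at promoters, were 59.5% in WT and 56.5% in KO. More than 2 kb from the Sox2 TSS, medians were 54.8% in WT and 53.2% in KO. Peaks over 2 kb from any TSS had 53 and 51%. The promoter was at the upper end. At the lower end were the -2.1 kb WT peak, the +95.4 kb site and part of the +111.4 kb site. The -2.1 kb peak had 47% in its central 200 bp but 57.4% over the listed peak. The +95.4 kb site had 1 CpG or none in its central 200 bp, and the WT-only +110.0 kb site had 13. The -9.1 kb peak had 17 CpGs, close to the 18 of the WT coding-sequence peak. The central 31 bp of each of the 26 peaks had an exact match at only 1 place in the genome. Copies with mismatches were not searched, so unambiguous mapping was not shown.

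Seen as a neighbourhood, the Sox2 window was denser in peaks than its surroundings. It held 4.63 WT and 3.97 KO peaks per 100 kb, against 1.47 and 1.30 in the flanks out to 1 Mb and 2.45 and 2.25 on chromosome 3. Windows of the same kind were counted for 22367 protein-coding genes. The number at Sox2 was ordinary, with medians of 15 WT and 12 KO peaks per window. Most of those windows hold other promoters, however. Among the 1049 genes with no other protein-coding TSS in the window, medians were 6 and 5, and 15.3% (WT) and 18.0% (KO) had as many peaks as Sox2 or more.

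Peak numbers as high as in the control region were less common. At 95 to 120 kb downstream of the TSS, 7.0% of all genes had 5 or more WT peaks and 4.32% had 5 or more KO peaks. Among genes with no other protein-coding TSS, 10 (0.953%) reached 5 in WT and 6 (0.572%) in KO, and Sox2 is 1 of these. Since the zone was set at the place of a known enhancer, these percents are a description only.

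**Figure D4:**
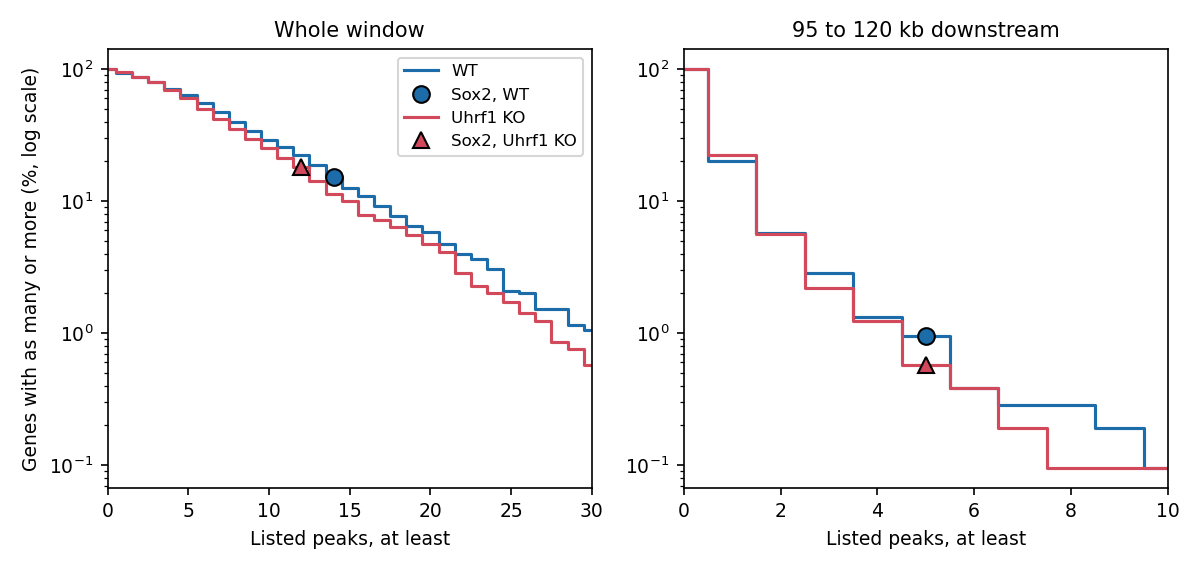
Percent (log scale) of the 1049 protein-coding genes without another protein-coding TSS in their window that had at least the number of listed peaks on the horizontal axis, in the whole window (left) and 95 to 120 kb downstream (right), for WT and Uhrf1 KO. Sox2, marked, lies at 15.3 and 18.0% on the left and at 0.953 and 0.572% on the right.

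Related genes were counted in the same way. Sox3, the other SoxB1 gene found in the annotation, had 9 WT and 4 KO peaks in its window, 5 and 2 of them at its promoter, and none 95 to 120 kb downstream. Of the 16 Sox genes of other groups, 12 had more WT peaks, 3 more KO peaks and 1 the same number, with medians of 19 and 14. Of 11 other pluripotency factors, 10 had more WT peaks and Nanog had 40 in each, with medians of 21 and 15. Over all genes, 67.0% had more WT peaks, and the WT list was the longer. Sox1 and Tfcp2l1 were not analysed here.

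Among these genes, 5 had at least 5 WT peaks 95 to 120 kb downstream, as Sox2 had. Nanog, the homeobox factor of the pluripotency network, had 9 WT and 8 KO peaks there. Esrrb had 6 and 5, Klf2 had 5 and 6, Sox15 had 6 and 6, and Sox21 had 5 and 3. All of these had other protein-coding TSSs in their windows, from 1 at Esrrb to 21 at Sox15. By the distance between the numbers of peaks in 7 zones of both lists, the 4 genes most like Sox2 were 6030405A18Rik, Ap3m2, Map1lc3a and Tctn3, the nearest at a distance of 2.00 against a median of 5.22 over 22362 genes. Each of them had 3 to 5 other protein-coding TSSs in its window, where Sox2 had 0.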

How the data were processed

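ATAC-seq of 1 WT and 1 Uhrf1 KO ESC library was analysed as the deposited peak lists. The authors mapped reads to mm9 with Bowtie2 2.1.0, reporting 1 alignment per read, and used fragments under 150 bp. HOMER 4.9.1 is named in the submitters' processing notes without a role. Peak caller, threshold and any Tn5 shift are not given in the sources used here. The deposited score is 1 for every peak, and peak width is fixed at 101 bp (86 bp for 1 KO peak), which leaves the depth of a peak unknown.

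The members and lists were chosen with earlier results of these data known. Genes and TSSs came from GENCODE vM1, sequence from NCBIM37. Peaks up to 100 bp apart were taken as partners, and this matching, tested on 5000 simulated regions, made 0 wrong calls. Those regions were isolated and never overlapped their partner, so the check did not cover overlapping or clustered peaks. Exact Clopper-Pearson (shares) and Poisson (numbers) intervals of 95% cover counting error only. Named comparison genes were the SoxB1 genes, other Sox genes, a list of pluripotency factors, and the 5 genes with the nearest zone counts, as log2 of peaks plus 1, over 1 Mb away, of which 1 is not reported here. Python 3.11.15, numpy 2.4.6, pandas 2.3.3, scipy 1.17.1, pysam 0.24.0, samtools 1.23.1 and matplotlib 3.10.9 were used.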

Additional observations from a re-analysis of the deposited data

How the results depend on the processing

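Of 43 recomputed values, 29 stayed close to the value reported (shares within the exact interval, peak numbers within 1.5 times, GC within the quartiles). The KO-only share, 8.33%, became 41.7% when at least 50% of both peaks had to overlap, 0% with a gap of up to 500 bp and 42.9% among the lower 50% of name numbers, beside 42.4, 21.6 and 21.9% of all KO peaks under the same rules. The last rule cut both lists before matching, so a KO peak could lose a WT partner that had a higher number. Matched to the full WT list, the only KO peak without a partner was at a percentile of 80.4, outside that range. With 100 kb on either side, the window held 9 WT and 7 KO peaks. With only the lower 50% of name numbers it held 6 WT and 7 KO peaks, the control region held 1 WT and 3 KO peaks, the promoter held 2 KO peaks, and the zone 2 to 10 kb upstream held 1 WT peak. With neighbouring peaks merged, the control region held 3 KO peaks. The median GC of WT peaks was 59.4% over the listed peak instead of the central 200 bp. With at least 1 bp shared, the KO-only share was 16.7%. By the closest pair of peaks, an alternative chosen after the values were seen, KO had the lower number at 2 of the 8 shared sites instead of 4. No paired analysis was possible because there was only 1 library of either genotype. Neither a replicate nor a depth per peak was available, so a low-ranked peak missing from a list cannot be told apart from one just under the threshold.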

Other observations

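The CTCF core AGGGGGCGC, noticed in the WT-only peaks upstream of Sox2, was counted in all peaks over 2 kb from any TSS. It was in 2.43% of WT-only peaks (95% exact interval 2.17 to 2.71%), 1.46% of WT peaks with a KO partner (1.30 to 1.64%), 1.49% of KO peaks with a WT partner (1.32 to 1.67%) and 0.456% of KO-only peaks (0.345 to 0.592%). Median GC content was 54% in WT-only peaks, 52.5% in shared peaks and 48.5% in KO-only peaks, and its part in these shares was not tested. The short Sox core CNTTGT went the other way, with 33.5% of WT-only peaks (32.7 to 34.3%) and 42.4% of KO-only peaks (41.5 to 43.3%). Peaks with a partner lay between, at 36.0% in WT (35.4 to 36.7%) and 36.9% in KO (36.2 to 37.6%). The intervals cover counting error only, each genotype had 1 library, and both cores were chosen after the sequences around Sox2 had been seen.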
